A study of Mus musculus with 8 samples.

Results

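The active zone is the stretch of presynaptic membrane where synaptic vesicles dock, are primed and fuse. Munc13 proteins prime vesicles by opening syntaxin for assembly of the SNARE complex. RIM proteins link vesicles, Munc13 and calcium channels to each other, and the giant scaffolds Bassoon and Piccolo organise the site around them. In the developing cortex these proteins are made by neurons that are growing axons and beginning to form synapses. The genes described here are the 3 vesicle priming genes Unc13a, Unc13b and Unc13c (Munc13 proteins), the 3 RIM genes Rims1, Rims2 and Rims3, and the scaffold genes Bsn (Bassoon) and Pclo (Piccolo). They are 8 of the 21451 genes that the array annotation named with a single symbol. The family was chosen from the same comparison that is described below, because Unc13c was among the few genes whose level fell in it. The differences of Unc13c are therefore given as a description, and nothing rests on their p-values.

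Cortical RNA was taken at embryonic day 18.5 from 4 Ptbp2 knockout (KO) mouse embryos and 4 wild type mouse embryos on a mixed background of CD1 and C57BL/6, with 1 Affymetrix exon array per embryo. Ptbp2 encodes an RNA-binding protein of developing neurons that represses alternative exons. The sources used here do not say how the KO allele was made or which cells lack the protein, and they state no allele or treatment for the controls. An exon array holds many probe sets per gene, each covering a small piece of it, and values are log2 signals, so a difference of 1 is a doubling of the signal.

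The labels were checked on the deleted gene. Ptbp2 read 6.24, 5.80, 5.54 and 6.22 in KO cortex, against 11.40, 11.15, 11.08 and 11.16 in wild type cortex, a log2 difference of -5.25. The labelled tissue was checked on genes of cortical projection neurons, of which 7 were tested. They cannot show whether other tissue was taken along, and markers of other regions are given below. The transcription factors Neurod6 and Neurod2 averaged 11.56 and 11.66 in KO cortex, against 11.54 and 11.61 in wild type cortex. The log2 differences of the 7 ran from -0.20 for Tbr1 to 0.23 for Fezf2, with 2 below and 5 above wild type. Array medians lay between 6.82 and 6.93. In a principal component analysis of the gene levels, KO 3 and wild type 3 lay farthest from the other arrays, so values without these arrays are given where a result changes.

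The family had 342 probe sets. Of these, 307 were retained, which means that their mean over the 8 arrays reached the median of all probe sets on the array, a log2 signal of 6.84. Retained were 53 of 55 probe sets for Unc13a, 52 of 56 for Unc13b, 16 of 32 for Unc13c, 44 of 47 for Rims1, 46 of 49 for Rims2, 11 of 12 for Rims3, 40 of 42 for Bsn and 45 of 49 for Pclo. Unc13c thus had more probe sets under the limit than any other member. Just inside it lay 4534246 of Rims2 and 4736246 of Unc13c, both with a mean of 6.92. Just outside it lay 4377335 of Unc13a at 6.83 and 5078267 of Rims2 at 6.82. The level of a gene on an array was the median of its retained probe sets, and all 8 members had enough of them to be tested. Probe sets differ in how strongly they hybridise, so the levels of different genes are not ranked against each other.

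Unc13c encodes Munc13-3, a priming protein best known in rodents from the cerebellum. Its level was 7.37, 7.26, 7.07 and 7.41 in KO cortex on arrays 1 to 4, against 8.10, 7.85, 7.95 and 7.71 in wild type cortex. Every KO array lay below every wild type array, with KO 3 lowest and wild type 1 highest. The means were 7.28 ± 0.15 in KO cortex and 7.90 ± 0.17 in wild type cortex (SD, n = 4 each). The log2 difference was -0.62 (SE 0.11), a signal 1.54-fold lower in KO cortex, and it was number 12 of 12960 genes counted from the most lowered. In bulk tissue, fewer cells of a type and less RNA per cell cannot be told apart.

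By limma with Benjamini-Hochberg adjustment over all genes tested, Unc13c was the 1 member of 8 past an adjusted p of 0.05, where 0.116% of all genes passed. It was also the 1 member with an unadjusted p under 0.05 (6.49% of all genes) and the 1 member whose groups did not overlap with KO lower (1.97% of all genes). The comparison chose the gene, so nothing is read from these counts. The difference lay between -0.69 and -0.56 with any single array left out, and it passed the threshold only without KO 4 or without wild type 4. It was -0.54 without KO 3 and wild type 3, with a limma adjusted p of 0.19.

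The fall of Unc13c ran through all of its probe sets. Each of the 16 retained probe sets was lower in KO cortex, by log2 differences between -1.31 and -0.23 with a median of -0.55. The 16 probe sets that were not retained were lower too, between -1.19 and -0.32 with a median of -0.76, so the sign was the same on both sides of the filter. In 18 of the 32 probe sets the KO and wild type arrays did not overlap, and 9 of these 18 were retained. Over all retained probe sets on the array, 1.51% did not overlap with KO lower. No such share was computed for probe sets under the limit. The comparison chose the gene, so nothing is read from the count. Of the Unc13c probe sets left out, 4 had a wild type mean above the limit and 0 had a KO mean above it. Among those retained for Unc13c, 3 had a KO mean below the limit.

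**Figure D1:**
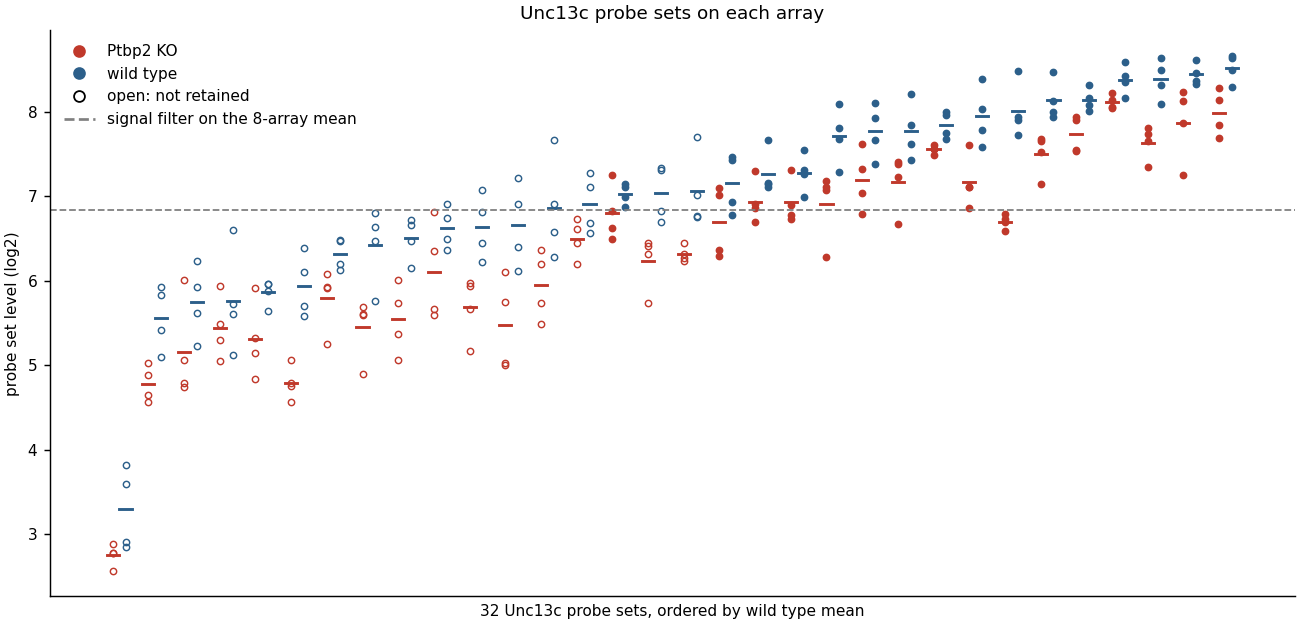
Log2 signal of the 32 Unc13c probe sets on each array, ordered from left to right by wild type mean, with Ptbp2 KO in red left of wild type in blue, short bars for group means, open circles for probe sets that were not retained and a dashed line for the filter on the mean over the 8 arrays. The KO mean lies below the wild type mean in all 32 probe sets, whose differences run from -1.31 to -0.23.

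The probe set with the largest difference in the family was 4813380 of Unc13c. It read 6.80, 6.73, 6.69 and 6.59 in KO cortex, against 8.49, 7.91, 7.94 and 7.73 in wild type cortex. All KO arrays lay below the filter of 6.84 and all wild type arrays lay far above it. The means were 6.70 ± 0.088 in KO cortex and 8.02 ± 0.33 in wild type cortex (SD, n = 4 each), and the log2 difference was -1.31 (SE 0.16). It was the 1 retained probe set of the family, of 307, that passed an adjusted p of 0.05 in level by limma, where 0.0921% of all retained probe sets passed. It passed with any single array left out, but not without KO 3 and wild type 3 together, where the log2 difference was -1.34 (limma adjusted p = 0.13), or with no signal filter (limma adjusted p = 0.057). The second largest among retained probe sets was 5115008 of Unc13c, with 7.11, 7.08, 6.28 and 7.18 in KO cortex, against 8.10, 7.69, 7.29 and 7.81 in wild type cortex. These groups did not overlap either, and KO 3 was far below the other KO arrays. At the other end of the range was 4736246, the Unc13c probe set nearest the filter, with means of 6.80 in KO cortex and 7.03 in wild type cortex, and its groups overlapped.

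Unc13b, which encodes the forms of Munc13-2, came nearest to Unc13c among the other members. Its level was 8.69, 8.44, 8.67 and 8.75 in KO cortex, against 8.97, 8.67, 8.91 and 8.80 in wild type cortex. KO 4 lay above wild type 2, so the groups overlapped. The means were 8.64 ± 0.13 in KO cortex and 8.84 ± 0.13 in wild type cortex (SD, n = 4 each). The log2 difference was -0.20 (SE 0.10), its 95% interval ran from -0.41 to 0.014, and the limma adjusted p was 0.79. Of its 52 retained probe sets, 47 were below wild type, with a median difference of -0.13 and a lowest of -0.39. In 3 of them the groups did not overlap with KO lower, where 1.51% of all retained probe sets met that condition. One of the 3, 4946593, read 8.11, 8.20, 8.22 and 8.15 in KO cortex, against 8.64, 8.26, 8.65 and 8.35 in wild type cortex. The probe sets of a gene share their RNA, so their common sign is not a count of independent measurements.

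Unc13a, which encodes Munc13-1, the main priming protein of excitatory synapses in the forebrain, had levels of 9.63, 9.38, 9.23 and 9.49 in KO cortex, against 9.58, 9.41, 9.37 and 9.32 in wild type cortex. KO arrays were both the highest and the lowest of the 8. The means were 9.43 ± 0.17 in KO cortex and 9.42 ± 0.11 in wild type cortex (SD, n = 4 each), and the log2 difference was 0.013 with a 95% interval from -0.21 to 0.23. Its retained probe sets were divided, with 30 below and 23 above wild type. One stood apart: 4952102 read 8.44, 8.34, 7.16 and 8.86 in KO cortex, against 9.22, 8.41, 8.88 and 8.65 in wild type cortex. Its log2 difference of -0.59 rested largely on KO 3 and was -0.25 without that array.

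**Figure D2:**
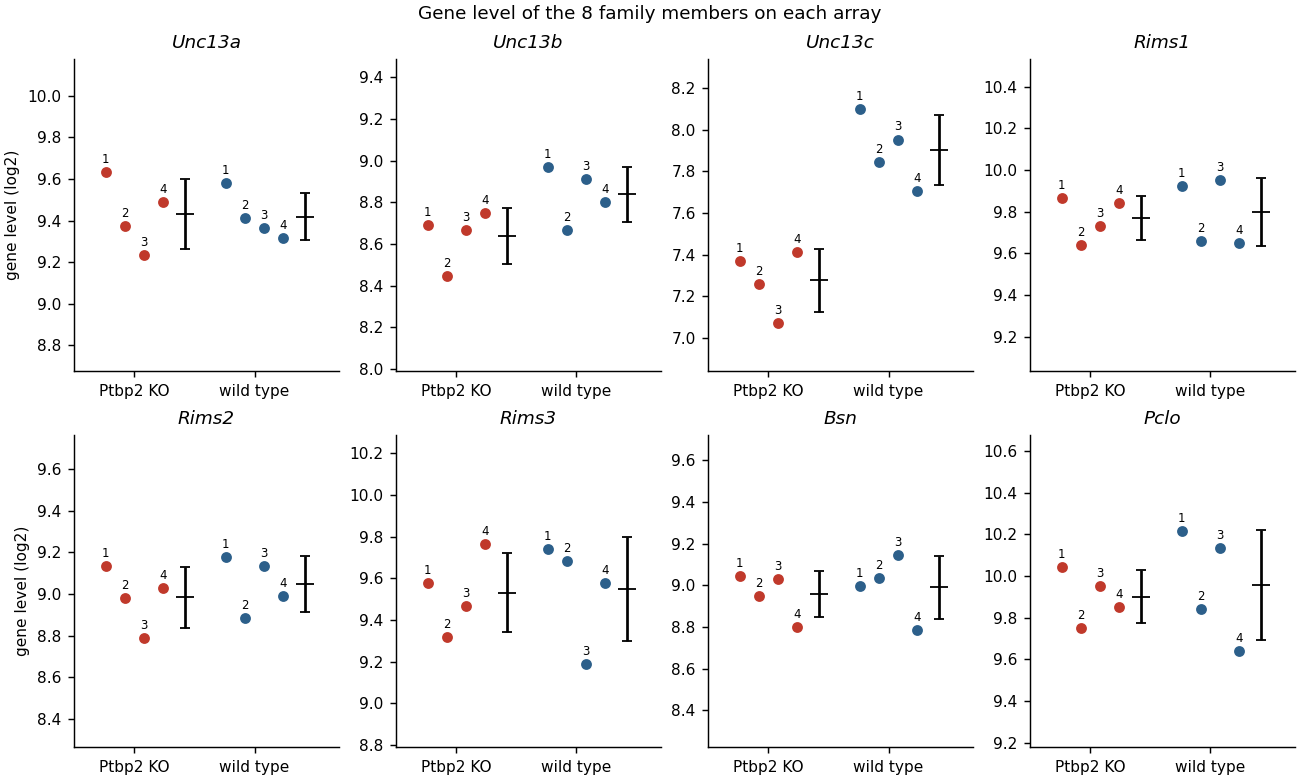
Gene level (log2) of the 8 members on each array, Ptbp2 KO in red left of wild type in blue, numbered by array, with the group mean and SD in black beside the points; every panel spans the same log2 range. Unc13c is the 1 panel in which the groups do not overlap, with KO arrays from 7.07 to 7.41 and wild type arrays from 7.71 to 8.10.

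Rims1 and Rims2 encode the long RIM proteins, which bind Rab3 on vesicles, Munc13 and calcium channels. Rims1 had levels of 9.87, 9.64, 9.73 and 9.84 in KO cortex, against 9.92, 9.66, 9.95 and 9.65 in wild type cortex. Its log2 difference was -0.027 (SE 0.10), with a 95% interval from -0.24 to 0.19. Rims2 had levels of 9.14, 8.98, 8.79 and 9.03 in KO cortex, against 9.18, 8.89, 9.14 and 8.99 in wild type cortex. The lowest array was KO 3 and the groups overlapped, with a log2 difference of -0.062 (SE 0.10) and an interval from -0.28 to 0.16. Rims3 encodes a short RIM protein that keeps little more than the last C2 domain. It read 9.58, 9.32, 9.47 and 9.77 in KO cortex, against 9.74, 9.68, 9.19 and 9.58 in wild type cortex, and wild type 3 was the lowest array. Its log2 difference was -0.017 (SE 0.13), with an interval from -0.29 to 0.25.

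Among RIM probe sets, 29 of 44 retained for Rims1, 30 of 46 for Rims2 and 9 of 11 for Rims3 lay below wild type. For 1 of them the groups did not overlap with KO lower, where 1.51% of all retained probe sets met that condition. This was 5245682 of Rims1, which read 9.86, 10.02, 10.11 and 10.05 in KO cortex, against 10.25, 10.40, 10.23 and 10.16 in wild type cortex. The largest differences of retained probe sets were -0.42 in Rims1 (4348788), -0.40 in Rims2 (5186982) and -0.32 in Rims3 (4484135), all with overlapping groups. When no filter was applied, 3 member probe sets passed in usage, of 889 that passed over the whole table, where 414 passed with the filter. Of the 3, 2 were RIM probe sets under the limit, both higher in KO cortex. Probe set 5473877 of Rims3 read 7.16, 6.63, 6.78 and 7.00 in KO cortex, against 5.85, 5.32, 6.14 and 5.73 in wild type cortex, a log2 difference of 1.13. Probe set 4804544 of Rims1 read 6.60, 6.40, 6.63 and 6.25 in KO cortex, against 5.41, 6.07, 5.80 and 5.72 in wild type cortex, a log2 difference of 0.72. In 4804544 every array lies under the limit, and in 5473877 every wild type array and 2 of the KO arrays do.

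Bsn had levels of 9.05, 8.95, 9.03 and 8.80 in KO cortex, against 9.00, 9.04, 9.15 and 8.78 in wild type cortex. In each group array 4 was the lowest. The log2 difference was -0.033 (SE 0.10), with a 95% interval from -0.25 to 0.18. Pclo had levels of 10.04, 9.75, 9.95 and 9.85 in KO cortex, against 10.21, 9.84, 10.13 and 9.64 in wild type cortex. The wild type arrays spanned the KO arrays at both ends, and the log2 difference was -0.056 (SE 0.12) with an interval from -0.32 to 0.20.

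The scaffold genes had 1 probe set each whose groups did not overlap, and these went opposite ways. Over all retained probe sets, 1.51% did not overlap with KO lower and 2.73% with KO higher. Probe set 4367913 of Bsn read 10.04, 10.29, 10.27 and 10.48 in KO cortex, against 10.86, 10.60, 10.56 and 10.54 in wild type cortex, a log2 difference of -0.37. Probe set 4674607 of Pclo read 11.47, 11.50, 11.39 and 11.40 in KO cortex, against 11.04, 11.21, 11.08 and 11.20 in wild type cortex, a log2 difference of 0.31. Pclo also held the largest differences among retained probe sets of these genes, both with overlapping groups. Probe set 4419602 averaged 8.45 ± 0.20 in KO cortex and 7.95 ± 0.42 in wild type cortex (SD, n = 4 each), and 4415012 averaged 8.10 ± 0.32 in KO cortex and 8.62 ± 0.33 in wild type cortex. The 40 retained Bsn probe sets were near evenly divided, with 21 below wild type, and 32 of 45 were below it for Pclo.

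Across the family, 7 of 8 gene levels were below wild type, where 49.0% of all genes tested were, and the median over all genes was 0.0027. Unc13c, which chose the family, is 1 of the 7. The count was 4 of 8 without wild type 1, 5 of 8 without KO 2, without KO 3, without wild type 3 or without KO 3 and wild type 3 together, and 3 of 8 with array weights. It rose to 8 of 8 without KO 1, without wild type 4, with cyclic loess normalization or with the mean of probe sets. In 7 of 8 the groups overlapped, and of these 7 only Unc13b kept its sign in all 19 other settings. A stricter filter at the 75th percentile brought its difference to -0.068. None of the 7 members other than Unc13c passed the limma test, at adjusted p between 0.79 and 0.99, and 0 of the 7 had an unadjusted p under 0.05. Their intervals leave room for falls or rises of about the size seen for Unc13b, so the misses do not show equal levels. Of the 307 retained probe sets, 214 (69.7%) were below wild type with a median difference of -0.070. Over all retained probe sets on the array 44.4% were below wild type and the median was 0.023. That base, unlike the family, includes probe sets without a single gene symbol. Without Unc13c the family's share was 68.0% of 291, with a median of -0.063.

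**Figure D3:**
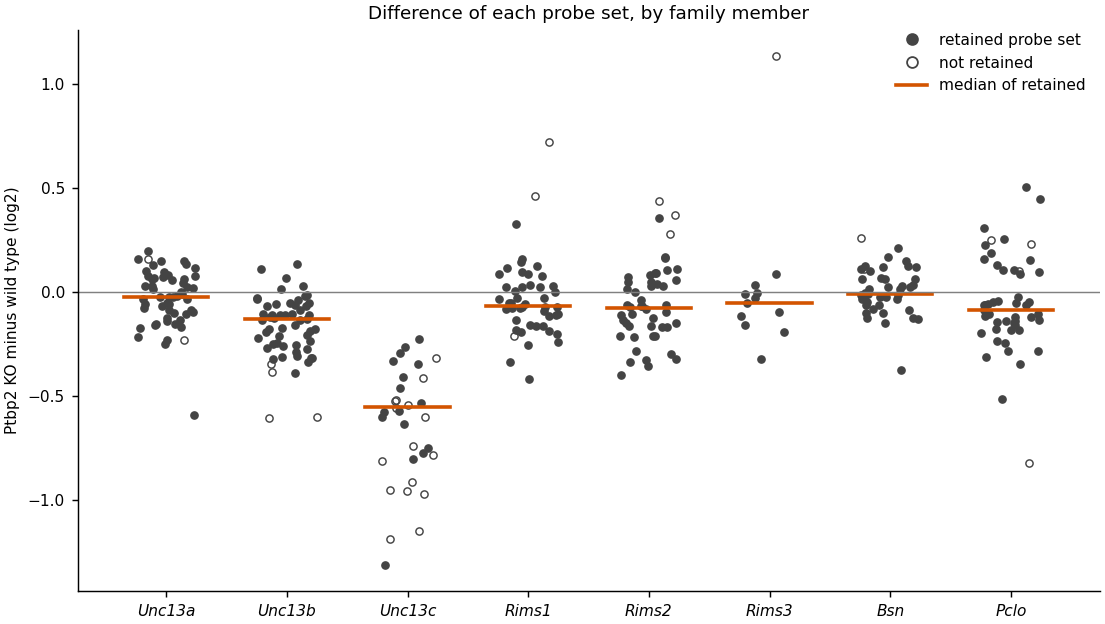
Difference of each probe set (Ptbp2 KO minus wild type, log2) by member, filled for retained and open for other probe sets, with an orange line at the median of the retained. All Unc13c points lie below 0, while the medians of the other members lie between -0.13 and -0.0081.

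Groups did not overlap with KO lower in 14 of the 307 retained probe sets, of which 9 were from Unc13c, 3 from Unc13b, 1 from Rims1 and 1 from Bsn. Over the array 1.51% of retained probe sets met that condition. With KO higher there was the 1 Pclo probe set, where 2.73% of all retained probe sets met it. Outside Unc13c no member probe set passed an adjusted p of 0.05 in level by limma. At an unadjusted p under 0.05 there were 10 lower and 3 higher among the 291, where 2.59% of all retained probe sets were lower and 4.84% higher.

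Ptbp2 acts on splicing, so each probe set was also set against the rest of its gene, which is called usage here. By limma diffSplice, 1 of the 307 member probe sets passed an adjusted p of 0.05, where 0.212% of all probe sets tested passed. It was again 4813380 of Unc13c, which lay 0.81 further down than the other probe sets of the gene (deviation -0.81, SE 0.20, adjusted p = 0.038). Its KO mean lies below the filter, and whether low signal had a part in the call was not tested. In the splicing index, a probe set minus its gene level on each array, the same probe set differed by -0.69 with a limma adjusted p of 0.53. With 1 array left out, the usage call of 4813380 held in 2 of 8 fits, without KO 2 and without KO 3. With no signal filter its deviation was -0.68 (limma adjusted p = 0.37) and the call was lost.

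Per gene, by the Simes p of diffSplice, Unc13c was the 1 member of 8 past the threshold (limma adjusted p = 0.047). Of all genes, 2.46% passed. The Unc13c call rested on 4813380, the 1 retained Unc13c probe set with an unadjusted diffSplice p under 0.05. It thus repeats the usage call of 4813380 and adds nothing from the rest of the gene. The KO mean of 4813380 was 6.70, below the filter, against 8.02 in wild type cortex. The comparison chose the gene, so nothing is read from its passing. At an unadjusted p under 0.05, 10 of 307 member probe sets differed in usage by diffSplice, where 4.57% of all did. By the splicing index 0 of 307 passed the adjusted threshold, where 0.00869% of all did, and 14 had an unadjusted p under 0.05, where 5.27% of all did. The nearest to the threshold among the other members were 4952102 of Unc13a, with a deviation of -0.57 (adjusted p = 0.094), and 4419602 of Pclo, with a deviation of 0.56 (adjusted p = 0.17). The probe set of Unc13a passed in 6 other settings, and none of these leaves out KO 3. Exon positions of the probe sets were not used here, so a probe set is named and not an exon.

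After each gene was centred on its own mean, the 5 genes whose levels followed Unc13c most closely over the 8 arrays were Map4, Ptprm, Rasgrf1, Penk and Taf1, with mean absolute log2 differences to it between 0.063 and 0.097 among 12959 genes. Map4 encodes a microtubule-associated protein, Ptprm a receptor tyrosine phosphatase, Rasgrf1 a Ras exchange factor, Penk the opioid precursor proenkephalin and Taf1 a subunit of the general transcription factor TFIID. In each of the 5 the KO arrays lay below the wild type arrays. The 5 were picked for following Unc13c, whose groups do not overlap. Their separation and array order were thus largely fixed by the choice, and nothing is read from them. Penk, for example, read 9.32, 9.18, 9.03 and 9.43 in KO cortex, against 9.91, 9.67, 9.60 and 9.65 in wild type cortex, with KO 3 lowest and wild type 1 highest as in Unc13c. Of the family, Unc13b was nearest to Unc13c, at number 397 with a mean absolute difference of 0.21, and the others were at numbers from 3210 to 6578.

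Genes that work beside the family at the active zone were described from 4 lists. The lists were written with earlier results of these data known, so their counts are a description. Of the partners that bind RIM, Munc13 or the scaffolds (ELKS, liprins, RIM-binding proteins, the CASK complex, Git proteins and Rims4), 17 of 18 were tested and 0 passed the limma threshold. Of these, 11 were below wild type, where 49.0% of all genes were, and 1 had an unadjusted p under 0.05, where 6.49% of all genes had. The median log2 difference was -0.011 and had no settled sign: it was 0.015 without wild type 1, 0.0062 without KO 3 and -0.053 without KO 4. The 1 partner with an unadjusted p under 0.05 was Lin7a, a PDZ protein of the CASK complex. It averaged 8.77 ± 0.12 in KO cortex and 8.99 ± 0.12 in wild type cortex (SD, n = 4 each). Ppfia4, a liprin, averaged 8.25 in KO cortex and 8.13 in wild type cortex. Erc1 and Erc2, which encode the ELKS proteins, had differences of -0.066 and -0.053.

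The relatives with a MUN domain, the part of Munc13 that opens syntaxin, were Unc13d, Baiap3, Cadps and Cadps2. All 4 were tested, none passed the limma threshold and 0 had an unadjusted p under 0.05. All 4 were below wild type (49.0% of all genes), with values of -0.14 for Cadps2, -0.13 for Baiap3, -0.11 for Cadps and -0.036 for Unc13d. Their median was -0.12, and it was -0.050 without KO 3 and -0.054 without KO 3 and wild type 3. Of Rab3, its effector rabphilin and the calcium channel subunits, 14 of 15 were tested and 0 passed. Among them 13 were below wild type (49.0% of all genes), and 2 had an unadjusted p under 0.05 (6.49% of all genes). Their median was -0.094, and it was -0.056 without wild type 1. Cacna2d3, an auxiliary subunit that brings calcium channels to the membrane, read 9.28, 9.22, 9.01 and 9.43 in KO cortex, against 9.82, 9.61, 9.47 and 9.55 in wild type cortex. Its groups did not overlap with KO lower (1.97% of all genes), and its log2 difference was -0.38 (limma adjusted p = 0.42). Rph3a, rabphilin, averaged 9.31 ± 0.047 in KO cortex and 9.56 ± 0.24 in wild type cortex.

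Of the genes for SNARE proteins, synaptotagmins, complexins and other parts of the priming and fusion machinery, 13 of 17 were tested. Of these, 1 passed, where 0.116% of all genes passed. Snap25, the plasma membrane SNARE that pairs with syntaxin, read 10.12, 10.08, 10.19 and 9.82 in KO cortex, against 11.14, 10.91, 10.65 and 10.89 in wild type cortex. The log2 difference was -0.84 (SE 0.11, limma adjusted p = 0.0048), and the groups were far apart. Of the 13, 8 were below wild type (49.0% of all genes). Their median was -0.078, but it was -0.012 without wild type 1, -0.025 without KO 3, -0.051 without KO 3 and wild type 3 and 0.0093 with array weights. Doc2b, a calcium sensor that binds Munc13, averaged 9.12 ± 0.056 in KO cortex and 9.36 ± 0.088 in wild type cortex (SD, n = 4 each). Syt1, the fast calcium sensor of release, averaged 11.28 ± 0.20 in KO cortex and 11.53 ± 0.062 in wild type cortex. In both the groups did not overlap with KO lower (1.97% of all genes). Their limma adjusted p missed the threshold, at 0.65 and 0.75. Stx1a, the syntaxin, and Vamp2, the vesicle SNARE, had differences of 0.012 and 0.014.

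**Figure D4:**
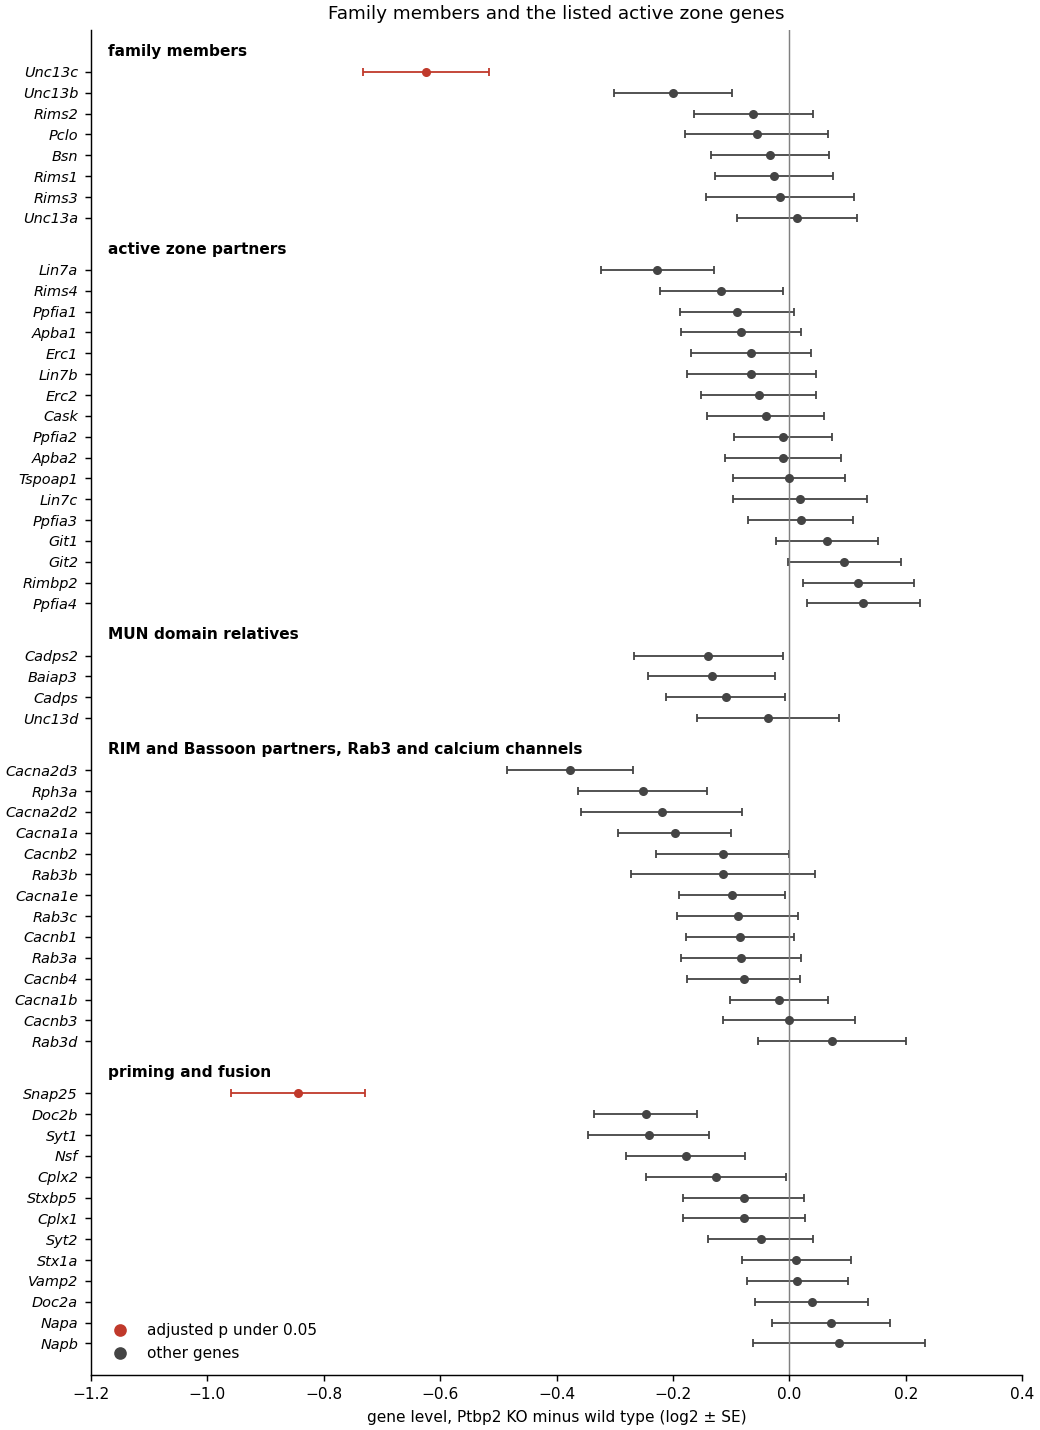
Gene-level difference (Ptbp2 KO minus wild type, log2) with its SE for the 8 members and the tested genes of the 4 active zone lists, ordered within each block, with genes past an adjusted p of 0.05 in red. Unc13c at -0.62 and Snap25 at -0.84 are the red points, and Cacna2d3 at -0.38 is the next lowest.

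Markers of other cells and regions were read on the same arrays. These lists too were written with earlier results of these data known, so nothing is read from their counts. Of the 8 striatal markers all were below wild type (49.0% of all genes), with a median log2 difference of -0.40. In 5 of them the groups did not overlap with KO lower (1.97% of all genes). The mean of the 8 read 8.98, 8.85, 8.70 and 9.01 in KO cortex, and between 9.17 and 9.41 in wild type cortex. KO 3 was the lowest array, as it was for Unc13c, and the groups did not overlap. The neuropeptide precursor Tac1 averaged 9.11 in KO cortex and 9.86 in wild type cortex, and Ppp1r1b, the phosphatase inhibitor DARPP-32, averaged 9.22 in KO cortex and 9.70 in wild type cortex. None of the 8 passed the adjusted limma threshold, and 7 had an unadjusted p under 0.05 (6.49% of all genes). The part of these markers in the fall of Unc13c was not tested.

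Markers of cortical projection neurons had a mean between 10.28 and 10.50 in KO cortex and between 10.19 and 10.47 in wild type cortex, with 2 of 7 below wild type. Markers of neurons of all kinds had a mean between 11.48 and 11.59 in KO cortex and between 11.61 and 11.79 in wild type cortex. That list includes Snap25, and its median difference was -0.012. Without Snap25 the mean of the other 6 lay between 11.72 and 11.84 in KO cortex and between 11.75 and 11.90 in wild type cortex, and the groups overlapped. For the cerebellum and hindbrain the mean lay between 8.21 and 8.42 in KO cortex and between 8.27 and 8.53 in wild type cortex, with 4 of 5 tested markers below wild type. The granule cell marker Gabra6 had too few retained probe sets to be tested. Interneuron markers were below wild type in 7 of 8, the oligodendrocyte lineage in 5 of 5, choroid plexus in 7 of 7, astrocytes and radial glia in 3 of 7, hippocampus and thalamus in 1 of 6 and microglia in 0 of 3. Over all genes tested, 49.0% were below wild type. The choroid plexus gene Ttr read 9.36 in KO 2, against 13.2 to 13.4 on the other arrays, while KO 2 lay between the other KO arrays for Unc13c. The thalamic marker Tcf7l2 read 9.87 in KO 4, against 7.66 to 8.22 on the other arrays, and KO 4 was the highest KO array for Unc13c.

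**Figure D5:**
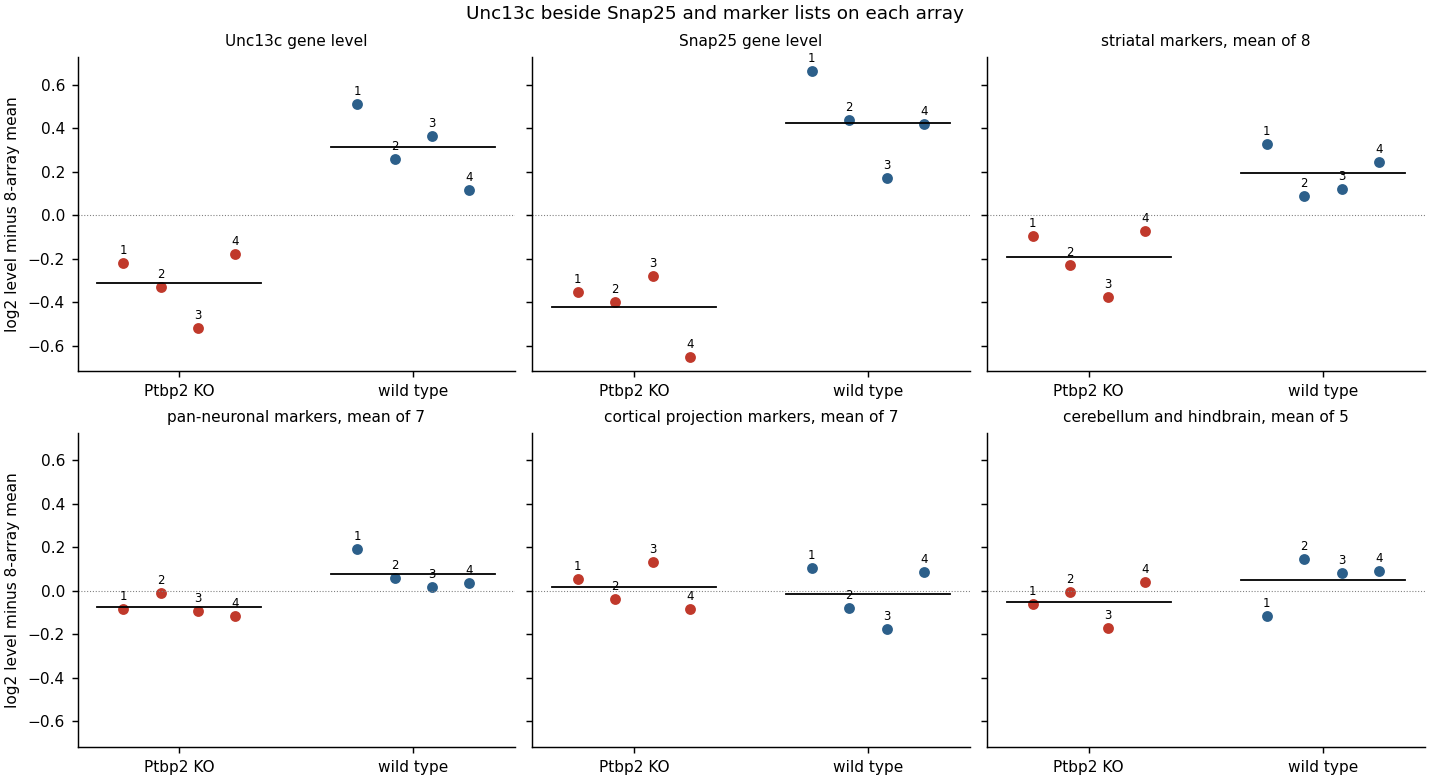
Level on each array minus the mean over the 8 arrays (log2) for Unc13c, Snap25 and the means of 4 marker lists, Ptbp2 KO in red left of wild type in blue, numbered by array, with lines at group means. Unc13c, Snap25 and the striatal mean do not overlap between groups, nor does the neuronal mean, which includes Snap25 and overlaps without it, while the cortical projection and the cerebellar and hindbrain means overlap.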

How the data were processed

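The table deposited by the authors holds log2 signals, 1 value per probe set and Affymetrix exon array. Per the submitters' processing notes it was made with RMA and Affymetrix Expression Console on the mm9 build; the sources used here give no versions. RMA normalises between arrays and compresses low signals. Of 625534 probe sets, 303629 had exactly 1 gene symbol in the platform annotation, and 312767 of all probe sets were retained. Shares given over all retained probe sets include those without a single symbol. They were not computed for named probe sets alone. The series design calls the samples biological replicates. No arrays were identical. There is no sequencing depth on arrays, so precision is limited by how many there are.

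Gene levels were medians of at least 4 retained probe sets. Levels and usage (195604 probe sets, Ptbp2 left out) were fitted over the whole table with limma 3.58.1 in R 4.3.3, on all 8 arrays without covariates, with Benjamini-Hochberg adjustment at 0.05, after the fits had been tested on simulated data. An adjusted p is from limma throughout. Intervals are from the moderated limma fit.

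The members and all lists were chosen with earlier results of these data known. Named by rule were the members, Ptbp2, each member's probe sets past 0.05, its 2 largest differences and its smallest usage p, each list's genes past 0.05 plus up to 2 by p, and the 5 genes most like Unc13c. Probe sets without overlap and other genes were named after their values were seen. Of the listed genes, 6 without a probe set of a single symbol were not analysed here.

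Same-numbered KO and wild type arrays correlated at 0.25, -0.0039, 0.033 and 0.17 in their deviations from group means, so the numbers were not taken to pair the samples. Alternatives were each array left out, KO 3 and wild type 3 left out together, the replicate block, other signal filters, normalizations, variance models, array weights, an Xist covariate, the mean for the median, a minimum of 1 probe set and the splicing index.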

Additional observations from a re-analysis of the deposited data

Results flagged for a closer look

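Of 54 groups of 4 arrays examined (the gene levels and named probe sets of the family), 1 held an array far from the other 3. In Unc13c probe set 5115008, KO 3 read 6.2835, while the other KO arrays lay between 7.08 and 7.18. Its gap to the nearest array was 0.886 of the group's range. Chance marks about 5% of such groups.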

How the results depend on the processing

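Unc13c kept a negative log2 difference in all 18 settings that tested it, from -0.69 to -0.47, and passed the limma threshold in 9 of them. With 1 array left out it lay between -0.69 and -0.56, and the count of members past the threshold was 0 to 1. It missed the threshold without KO 3 and wild type 3 (-0.54), with no signal filter (-0.61) and with a minimum of 1 probe set (-0.62), where the member count was 0, and it was not tested at the 75th percentile, where under 4 probe sets were left and the count was also 0. With the replicate block it was -0.62 (limma adjusted p = 0.043). Snap25 passed in all 19 settings, from -0.97 to -0.63. The count of member probe sets past the threshold in level became 0 without KO 3 and wild type 3 (4813380 at -1.34), with no filter (-1.31) and at the 75th percentile, where 4813380 was not retained. The usage count of 1 became 0 to 2 with 1 array left out, 2 with the replicate block, quantile or cyclic loess normalization, 3 with no filter (4319628, 4804544 and 5473877, with 4813380 lost), 4 with array weights, and 0 at the 75th percentile and with the splicing index; the cause was not tested. The replicate block changed no other call of the members. List medians ran from -0.053 to 0.015 for active zone partners, -0.17 to -0.050 for MUN relatives, -0.13 to -0.056 for Rab3 and calcium channels and -0.11 to 0.0093 for priming and fusion. Small differences turned sign: Unc13a was -0.033 at the 75th percentile, -0.0028 with cyclic loess, -0.029 with the mean, and -0.053 to 0.079 with 1 array left out. Without KO 3 and wild type 3, Rims1 was 0.038, Rims2 0.033 and Unc13b probe set 4811629 -0.029. With array weights, Rims1 was 0.092, Rims2 0.013, Bsn 0.078 and Pclo 0.15. Rims3 was 0.0013 with no filter and Bsn 0.072 at the 75th percentile. With 1 array left out, Rims1 ran from -0.076 to 0.025, Rims2 from -0.12 to 0.0030, Rims3 from -0.14 to 0.054, Bsn from -0.10 to 0.018, Pclo from -0.16 to 0.029 and Unc13b probe set 4811629 from -0.037 to 0.23. Over the whole table the settings gave 5 to 71 genes, 107 to 1183 probe sets in level and 139 to 2084 in usage. The usage count was 414 in the main fit, 889 with no filter, 2084 with array weights and 139 at the 75th percentile. The number of arrays and signals near the filter limit the precision.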
